A study of Mus musculus with 48 samples.

Results

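Interferon-stimulated genes are the genes that a cell switches on after it binds an interferon, and 39 of them were followed here across cultured mouse mammary tumour lines and across neutrophils and macrophages sorted from mouse mammary tumours. The members were listed by gene symbol and no measured value enters the rule, but the list was drawn up with earlier results of these data known. All 39 were found among the 24054 genes of the count table. They comprised 4 transcription factors (Stat2, Irf1, Irf7 and Irf9), 4 sensors of viral nucleic acid (Ifih1, Ddx58, Dhx58 and Zbp1), 3 genes of the ISG15 system (Isg15, Usp18 and Trim25), 19 antiviral effectors, 7 interferon-inducible GTPases and 2 chemokines (Cxcl9 and Cxcl10). RNA-seq was run on 8 cultured lines and on both myeloid cell types of 4 tumours, with 3 libraries in each of the 16 groups. No interferon or other treatment is named for any group, so levels below are those of cells with no named treatment.

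Lines and tumours were assigned to 2 mouse strains. T11, 2208L, 67NR and 4T1 were BALB/C lines, and AT3, E0771, PyMT-M and PyMT-N were C57BL/6 lines. E0771 was grown in RPMI 1640 with HEPES and the other lines in high-glucose DMEM, at passage 7 for PyMT-M, 14 for PyMT-N and E0771, 15 for AT3, 19 for 67NR and 15 to 20 for the rest. The sorted cells came from T11, 2208L, E0771 and AT3 tumours. They were live CD45+ CD11b+ cells gated as Ly6G+ with medium to low Ly6C for neutrophils, and as Ly6G- Ly6C- F4/80+ for macrophages. For E0771, 1 of 3 neutrophil and 1 of 3 macrophage libraries carried the label BALB/C in place of C57BL/6. The 3 count columns taken as PyMT-N carry the name PyMTE and were assigned to it because it was the only line left once every other column name had been matched, so each PyMT-N result rests on that assignment. No label names separate cultures or animals for the 3 libraries of a group, so the p-values below measure the spread between libraries only. Each line is a single established line, so a difference between 2 lines is a difference between those lines and cannot be told apart from their strain, medium or passage where these also differ.

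Type I interferons bind a receptor that activates the kinases Jak1 and Tyk2, which phosphorylate Stat2. With Irf9 it is part of a complex that enters the nucleus and binds the interferon-stimulated response element, a motif in the promoters of target genes. Interferon gamma uses another receptor, acts through a different motif, the gamma-activated site, and drives genes such as Irf1, the guanylate-binding proteins and Cxcl9. In tumours, interferon signalling in the cancer cells and in the myeloid cells around them is known to shape antigen presentation and the recruitment of T cells.

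Promoter sequence shows the element that many of the 39 genes share. RefSeq promoters on GRCm38.p6, from 250 bases before to 50 bases after the transcription start, were matched by symbol for 31 of the 39 members. The element was searched on both strands as GAAA, any 2 bases and GAAA (TTTC, any 2 bases and TTTC when read on the other strand), and the 6 stretches of 60 bases below show it in capitals, written 5′ to 3′ along the gene. They were picked from members with a match, and each of these genes is named in the comparisons that follow. The stretch of Isg15 is chr4:156200856-156200915, minus strand, where 3 overlapping matches run from 78 to 57 bases before the start. The stretch of Ifit1 is chr19:34640769-34640828, plus strand, that of Rsad2 is chr12:26456538-26456597, minus strand, that of Bst2 is chr8:71537565-71537624, minus strand, that of Oas1a is chr5:120907526-120907585, minus strand, and that of Cxcl10 is chr5:92349068-92349127, minus strand.
Isg15: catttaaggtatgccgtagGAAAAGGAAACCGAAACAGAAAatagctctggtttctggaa
Ifit1: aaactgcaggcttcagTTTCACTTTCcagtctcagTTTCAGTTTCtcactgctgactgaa
Rsad2: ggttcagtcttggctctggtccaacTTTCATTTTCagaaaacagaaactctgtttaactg
Bst2: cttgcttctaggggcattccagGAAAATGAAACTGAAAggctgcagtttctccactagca
Oas1a: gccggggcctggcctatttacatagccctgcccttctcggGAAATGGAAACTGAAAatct
Cxcl10: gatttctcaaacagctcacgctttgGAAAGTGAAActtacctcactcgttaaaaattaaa
The element was present in the promoters of 18 of the 31 members (58.1%), against 3.99% of the 27025 genes with a promoter entry and 3.44% of all 32851 promoters. The palindromic gamma-activated site, searched as TTCNNNGAA, was present in 9 of 31 members (29%), against 9.55% of all genes. Members without the element in this window included Irf7, Ifit2, Oasl1 and Oasl2, and 8 members had no promoter entry (Dhx58, Rtp4, Usp18, Oas2, Zbp1, Parp14, Mx1 and Mx2). A match is a description of letters and not a bound site or a cause, and no match says only that these letters are not in this window.

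The members are scattered over 14 chromosomes, and 19 of them lie in 8 groups of neighbours whose starts are within 200 kb of the next. On the reference annotation (GENCODE, GRCm38), Ifit2, Ifit3 and Ifit1 lie together at chr19:34550694-34650009, Oas2, Oas3 and Oas1a at chr5:120730333-120907521, Gbp7, Gbp3 and Gbp2 at chr3:142530342-142638008, and Rsad2 beside Cmpk2 at chr12:26442746-26479837. The gene models of Igtp and Irgm2 overlap at chr11:58199556-58222782, and neither the strand setting nor the handling of shared reads is given in the sources used here, so the counts of these 2 genes, and those of the near-identical Ifit, Oas, Oasl, Mx and Gbp family members, are uncertain where reads could be split between them.

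Total counts ranged from 2058329 to 6262942 in the line libraries, from 669862 to 3341097 in neutrophils and from 1862321 to 6240372 in macrophages. The ribosomal RNA gene Rn45s took 3.88% to 14.9% of the counts of lines but 26.8% to 70.3% of those of neutrophils and 55.0% to 76.2% of those of macrophages, and it was left out of every library size. The members together held 1559 to 9261 counts in a line library, 1447 to 8326 in a neutrophil library and 2044 to 9136 in a macrophage library. Levels are given as CPM, counts scaled to a common library total outside Rn45s, with TMM factors computed separately for lines and for sorted cells, so they are not comparable between these 2 sets. All 39 members passed the filter on low counts in both sets. As a measure of counts that need not come from expression, 1452 olfactory and vomeronasal receptor genes held 618 to 2964 CPM in lines, 870 to 3245 in macrophages and 3861 to 18878 in neutrophils. The macrophage markers (10 of 11 listed were in the table) summed to 7680 to 36900 CPM in macrophages and 494 to 7870 in neutrophils, and the 11 neutrophil markers to 1700 to 28500 CPM in neutrophils and 69.6 to 844 in macrophages. Ly6g, the gene behind the neutrophil gate, was not among the genes analysed here. The 7 epithelial markers summed to 2230 to 5320 CPM in 2208L, 4T1 and PyMT-N and to 22.4 to 178 in the other 5 lines.

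In the cultured lines, interferon-stimulated genes stood at different levels. The mean of log2(CPM + 1) over the 39 genes was 5.20 ± 0.08 in PyMT-N (mean ± SD, n = 3), 4.67 ± 0.07 in E0771, 4.36 ± 0.09 in 2208L, 3.91 ± 0.06 in T11, 3.8 ± 0.01 in 4T1, 3.22 ± 0.07 in PyMT-M, 3.09 ± 0.02 in 67NR and 2.88 ± 0.10 in AT3. No library of a line overlapped those of the next line in this order. All 39 members differed between the 8 lines by edgeR's quasi-likelihood F test at an adjusted p under 0.05, beside 89.1% of all 18183 genes tested, so the count alone says little about the list. The group means ranged most widely for Isg15 (5.19 between highest and lowest on the log2(CPM + 1) scale), Oasl1 (5.09), Ifit1 (4.58), Oasl2 (4.44), Rtp4 (4.11) and Oas3 (4.04), and least for Mx1 (0.98), Eif2ak2 (1.15) and Mx2 (1.31). PyMT-N held the highest mean of 21 members, E0771 of 8, T11 of 5, 2208L and 4T1 of 2 each and AT3 of 1 (Ifit2). AT3 held the lowest mean of 15 members, 67NR of 11, PyMT-M of 8, T11 of 4 and PyMT-N of 1. Per kilobase of exon, 37 of the 39 members in PyMT-N reached at least 10 times the level of the receptor genes, against 34 in 2208L, 32 in E0771, 27 in T11, 16 in PyMT-M, 14 in 4T1, 12 in 67NR and 6 in AT3 (Ifi35, Irf1, Eif2ak2, Trim25, Bst2 and Ifit2). On this per-kilobase scale Bst2 was the highest of the 39 genes in 6 lines (up to 278.9 CPM per kb, in PyMT-N), Isg15 in T11 (45.8) and Ifit2 in AT3 (21.4).

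**Figure D1:**
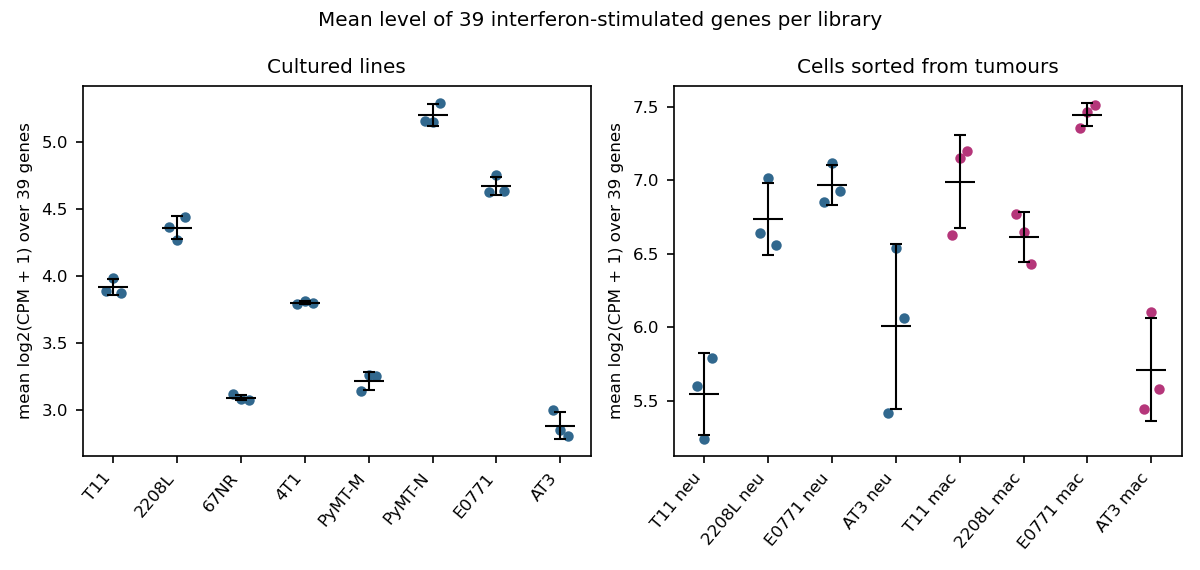
Mean log2(CPM + 1) of the 39 interferon-stimulated genes in every library, with the mean ± SD of each group of 3 libraries. Lines and sorted cells were scaled separately, so the 2 panels are not on 1 scale. PyMT-N is highest and AT3 lowest of the lines, and macrophages of E0771 tumours (7.45 ± 0.08) stand above those of AT3 tumours (5.71 ± 0.35).

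Members called between neighbours in the order of means were set beside the share of all genes. Between E0771 and 2208L, 24 of 39 members (61.5%) were called in either direction, 18 of them higher in E0771, beside 48.8% of all genes. Between 4T1 and T11, 21 (53.8%) were called, 10 of them higher in 4T1, beside 43.4% of all genes. Between PyMT-M and 67NR, 21 (53.8%) were called, 12 of them higher in PyMT-M, beside 50.9% of all genes. AT3 differed from 67NR in 13 members (33.3%), 4 of them higher in AT3, which was below the 47.4% of all genes. Nothing particular to the members is read from these 4 counts. The shares lay further apart between PyMT-N and E0771 (69.2% of members beside 49.2% of all genes) and between 2208L and T11 (71.8% beside 41.7%). Between 4T1 and PyMT-M they were 64.1% and 58.8%.

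**Figure D2:**
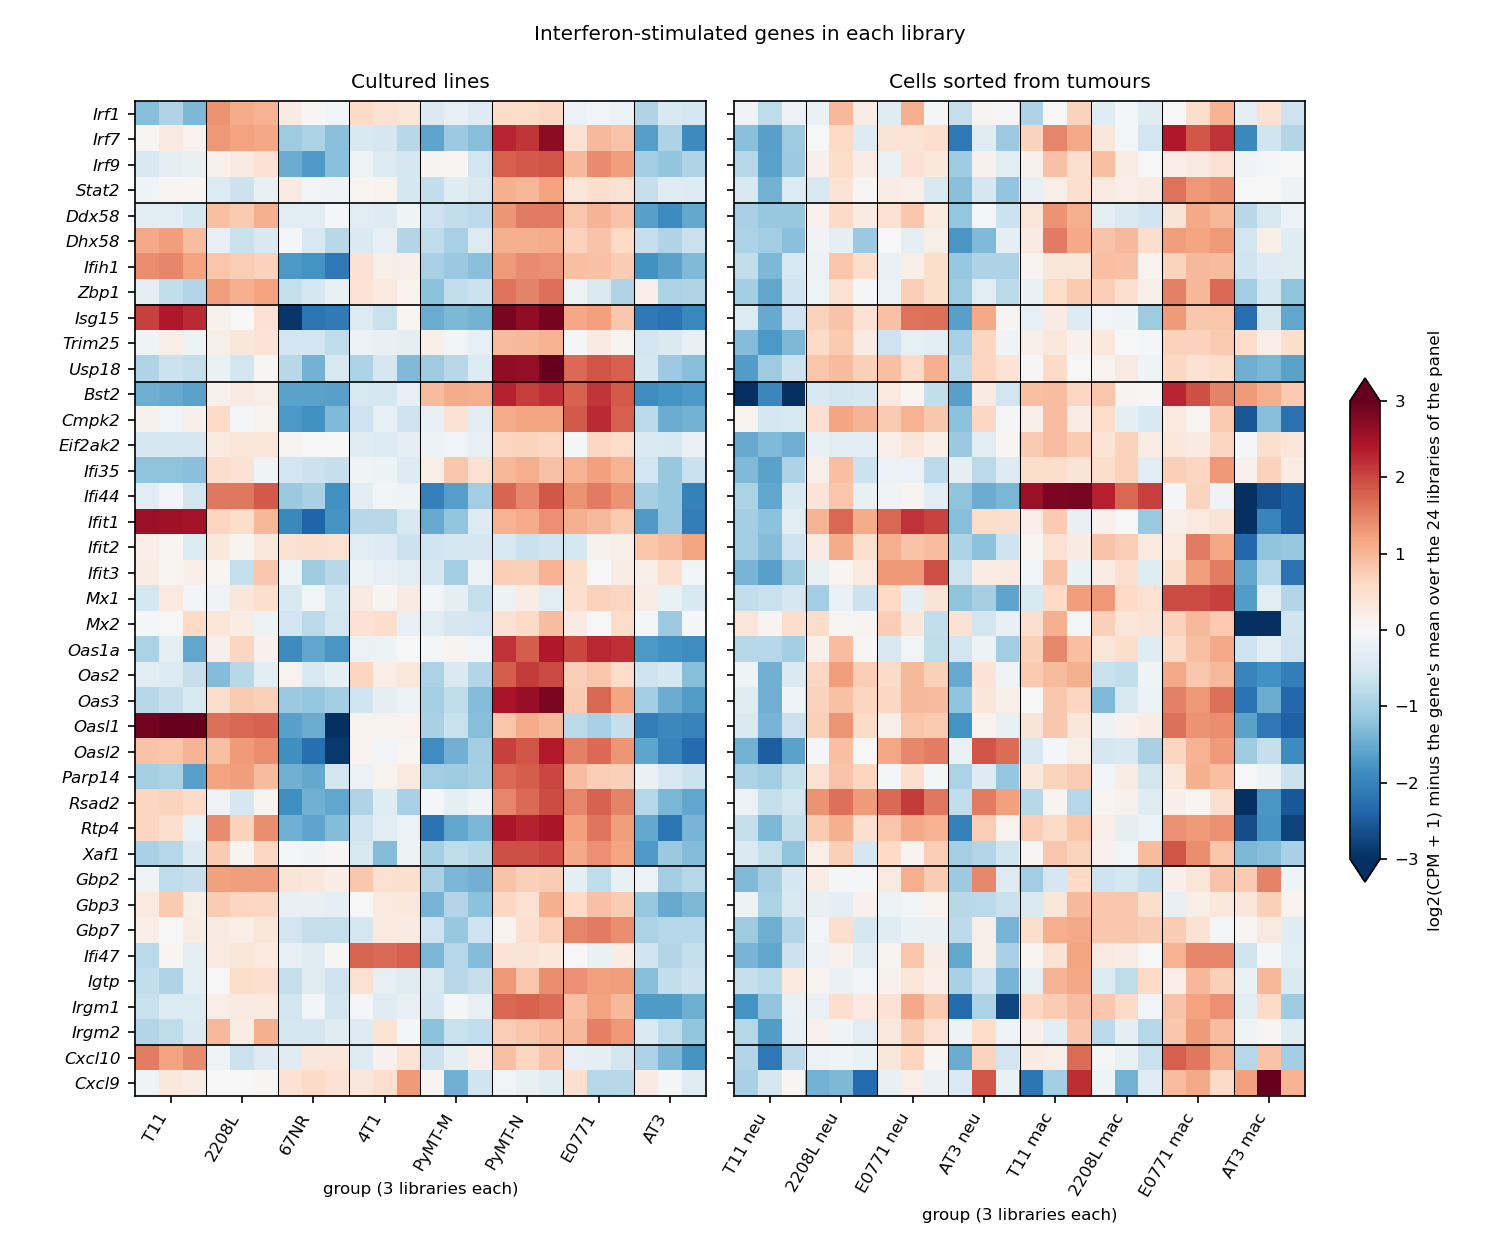
Level of each of the 39 genes (rows) in each library (columns), as log2(CPM + 1) minus the gene's mean over the libraries of its panel, for the 24 line libraries and the 24 sorted libraries. The columns of PyMT-N are above the gene mean in most rows, while Ifit2 stands apart with its highest level in AT3.

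Between the PyMT lines, PyMT-N and PyMT-M, the interferon genes were higher in PyMT-N almost without exception. In all, 36 of 39 members were higher and none was lower, beside 23.7% of all genes higher and 21.3% lower, and the members' median log2 difference was 2.03 against -0.08 over all genes tested. By role, 4 of 4 transcription factors, 4 of 4 sensors, 3 of 3 genes of the ISG15 system, 17 of 19 antiviral effectors, 7 of 7 GTPases and 1 of 2 chemokines were higher in PyMT-N. Mx1, Ifit2 and Cxcl9 did not pass the test. E0771 and PyMT-M differed in few genes over the whole table. Of 39 members 31 were higher in E0771 and none lower, beside 2.45% of all genes higher and 4.18% lower, and the median difference was 1.65 against 0.00 over all genes. These were the transcription factors in 3 of 4 cases, the sensors in 3 of 4, the ISG15 system in 2 of 3, the effectors in 16 of 19 and the GTPases in 7 of 7, but neither chemokine. PyMT-M was the lower line of both comparisons, so they share its 3 libraries.

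AT3, with the lowest mean of the lines, was compared with E0771, which had the highest mean after PyMT-N. In AT3, 34 of 39 members were lower than in E0771 and 1 was higher, beside 27% of all genes lower and 18.9% higher, and the members' median was -2.35 against 0.04 over all genes. Lower in AT3 were 4 of 4 transcription factors, 3 of 4 sensors, 3 of 3 genes of the ISG15 system, 17 of 19 effectors, 6 of 7 GTPases and 1 of 2 chemokines. The exception was Ifit2, and Ifit3, Zbp1, Gbp2 and Cxcl9 did not pass. In the BALB/C pairs, most of the members called were higher in 4T1 and in 2208L. In 4T1 against 67NR, 22 members were higher and 3 lower (21.5% of all genes higher and 25.9% lower), with a median of 0.65 against 0.06 over all genes. In 2208L against T11, 20 were higher and 8 lower (22.7% and 19%), with a median of 0.60 against -0.03.

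Among the transcription factors, Irf7 amplifies the interferon response and is itself one of its most inducible targets. Irf7 stood at 54.1, 48.8 and 71.7 CPM in PyMT-N, at 2.74, 4.30 and 3.66 in PyMT-M and at 14.5, 21 and 19.5 in E0771. It stood at 26.7, 24.9 and 24.2 in 2208L, 10.5, 12.6 and 11.2 in T11, 7.19, 6.88 and 5.31 in 4T1, 4.38, 4.87 and 3.75 in 67NR and 2.58, 4.97 and 1.98 in AT3. The 3 libraries of PyMT-N lay above all others, and those of AT3, PyMT-M and 67NR overlapped at the bottom. The log2 difference was 4.03 ± 0.22 (estimate ± SE) for PyMT-N against PyMT-M (edgeR, adjusted p = 7.94e-30), 2.38 ± 0.26 for E0771 against PyMT-M (adjusted p = 1.71e-11) and -2.43 ± 0.22 for AT3 against E0771 (adjusted p = 2.59e-16). It was 1.14 ± 0.20 for 2208L against T11 (adjusted p = 8.47e-07), while the 0.55 ± 0.30 for 4T1 against 67NR did not pass (adjusted p = 0.121). Irf9, the DNA-binding partner of Stat2, stood at 76.8, 80.4 and 81.8 CPM in PyMT-N and at 10.1, 9.0 and 11.1 in AT3. It differed from E0771 by -2.39 in AT3 and from PyMT-M by 1.99 in PyMT-N, and it was the one transcription factor with a difference above 1 between 4T1 and 67NR (1.22 ± 0.21). Irf1, a target of interferon gamma that many cells also hold at rest, followed another order. It was highest in 2208L (107, 90.3 and 86.9 CPM) and lowest in T11 (16.5, 21.6 and 15.8), a log2 difference of 2.38 ± 0.14 (adjusted p = 9.33e-28). PyMT-N (60.8, 61 and 64.6) and 4T1 (63, 57.5 and 53.7) came next, followed by 67NR (48.8, 42.5 and 39), E0771 (36.5, 39.3 and 36.7), PyMT-M (30.5, 34.8 and 31.1) and AT3 (21.6, 29.95 and 28.7). Its difference was 0.95 for PyMT-N against PyMT-M, 0.41 for 4T1 against 67NR and -0.48 for AT3 against E0771. The last of these no longer passed with scaling factors taken from genes above the receptor level (-0.24, adjusted p = 0.0728).

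Among the sensors, Ifih1, which encodes MDA5, and Ddx58, which encodes RIG-I, were higher in PyMT-N and E0771 than in PyMT-M and AT3. Ifih1 stood at 57.7, 63.7 and 61.6 CPM in PyMT-N and 11.3, 10.2 and 9.15 in PyMT-M, and at 44.1, 43 and 39.7 in E0771 and 5.87, 6.98 and 8.65 in AT3. None of these pairs overlapped, and the differences were 2.57 ± 0.16 (PyMT-N against PyMT-M) and -2.56 ± 0.15 (AT3 against E0771). Ddx58 differed by 2.23 and -2.68 in the same pairs. In the BALB/C lines, T11 held Ifih1 at 62.8, 65.4 and 54.9 CPM, overlapping PyMT-N, and 4T1 (31.3, 26.2 and 25.6) stood above 67NR (6.35, 5.98 and 4.50) by 2.28 ± 0.19. In 2208L, Ddx58 was higher than in T11 (1.32) while Ifih1 (-0.62) and Dhx58 (-1.65), the gene of LGP2, were lower. Zbp1, a sensor of Z-form nucleic acid, was highest in PyMT-N (16.3, 14.5 and 16.6 CPM) and 2208L (12.3, 10.9 and 11.8), and its difference from T11 in 2208L was 2.11 ± 0.33.

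Isg15 encodes a ubiquitin-like protein that is conjugated to others during the interferon response. It stood at 53, 46.8 and 54 CPM in PyMT-N, 30.1, 39.2 and 34.6 in T11, 15.9, 16.7 and 12.3 in E0771 and 7.21, 6.47 and 9.28 in 2208L. It stood at 4.65, 3.79 and 6.87 in 4T1, 1.71, 1.95 and 1.83 in PyMT-M, 0.704, 0.621 and 0.988 in AT3 and 0, 0.664 and 0.749 in 67NR, where the 3 libraries held 6 counts in all. The difference was 4.79 ± 0.25 for PyMT-N against PyMT-M (adjusted p = 5.44e-31), 3.02 ± 0.31 for E0771 against PyMT-M, -4.27 ± 0.31 for AT3 against E0771 (adjusted p = 1.42e-21) and 3.40 ± 0.48 for 4T1 against 67NR. In 2208L against T11 it went the other way from Irf7, at -2.17 ± 0.19 (adjusted p = 3.61e-17), with no overlap between the libraries. Usp18, which removes Isg15 and dampens the type I receptor, stood at 94, 92.5 and 125 CPM in PyMT-N and 47.9, 54.5 and 51.5 in E0771, against 6.17, 7.42 and 10.2 in PyMT-M and 9.39, 6.05 and 5.19 in AT3. Its differences were 3.71 ± 0.18 for PyMT-N against PyMT-M, 2.69 ± 0.19 for E0771 against PyMT-M and -2.91 ± 0.17 for AT3 against E0771. Trim25, a ligase of the same system that most cells hold at rest, differed by 1.05 and -0.53 in the first and last of these.

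Among the antiviral effectors, Rtp4, a chaperone-like protein that restricts viral replication, was 4.53 ± 0.24 higher on the log2 scale in PyMT-N than in PyMT-M, at 58.8, 53.3 and 59.1 against 1.37, 2.73 and 3.29 CPM. Oas3 (3.84 ± 0.19) and Oasl2 (3.73 ± 0.19), both of the oligoadenylate synthetase family, came next. In AT3 against E0771, Oas1a was lowest, at 3.05, 2.79 and 2.72 against 53, 63.8 and 60.6 CPM, a log2 difference of -4.37 ± 0.19 (adjusted p = 1.03e-35). Bst2, or tetherin, which holds budding virus at the cell surface, stood at 274, 231 and 250.5 CPM in PyMT-N, 187, 244 and 197 in E0771 and 106, 119 and 117 in PyMT-M. Its level was 59.3, 64.4 and 61.3 in 2208L, 38.9, 37.5 and 45.9 in 4T1, 18.9, 18.3 and 17.3 in T11, 17.1, 17 and 17 in 67NR and 14.3, 15.1 and 15.8 in AT3. PyMT-M was thus low in Isg15 and Irf7 but held more Bst2 than any BALB/C line, and the Bst2 difference was 1.15 ± 0.10 for PyMT-N against PyMT-M, 0.88 ± 0.10 for E0771 against PyMT-M, -3.80 ± 0.12 for AT3 against E0771, 1.26 ± 0.14 for 4T1 against 67NR and 1.75 ± 0.14 for 2208L against T11.

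Rsad2, which encodes viperin, stood at 41.6, 49.2 and 58.6 CPM in PyMT-N, 41, 51.2 and 42.1 in E0771, 23.1, 23.3 and 21.9 in T11 and 14.1, 11.7 and 13.2 in PyMT-M. It stood at 13.2, 9.88 and 15.2 in 2208L, 7.19, 11 and 6.87 in 4T1, 7.51, 4.97 and 4.20 in AT3 and 3.29, 4.65 and 4.25 in 67NR. PyMT-N and E0771 lay above the other lines, with differences of 1.92 ± 0.17 for PyMT-N against PyMT-M, 1.79 ± 0.17 for E0771 against PyMT-M and -3.03 ± 0.18 for AT3 against E0771. The 4T1 difference from 67NR was 1.04 ± 0.28 and that of 2208L from T11 -0.82 ± 0.19. Its neighbour Cmpk2, a nucleotide kinase, was lower in AT3 than in E0771 by a similar margin (-3.51 ± 0.20).

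The IFIT genes, whose proteins bind foreign RNA, split. Ifit1 was highest in T11, at 86.9, 84.4 and 81.9 CPM, above PyMT-N (29.3, 30.8 and 36.8), E0771 (29.3, 27.6 and 24.1) and 2208L (21.9, 20.1 and 28.1). It was low in 4T1 (7.19, 7.23 and 9.69), PyMT-M (4.11, 5.47 and 10.2), AT3 (3.52, 5.59 and 2.47) and 67NR (2.85, 1.77 and 3.25). The log2 difference was 2.29 ± 0.21 for PyMT-N against PyMT-M, 2.03 ± 0.21 for E0771 against PyMT-M, -2.71 ± 0.20 for AT3 against E0771, 1.63 ± 0.31 for 4T1 against 67NR and -1.85 ± 0.14 for 2208L against T11. Ifit2, its neighbour on chromosome 19, was highest in AT3 (75.3, 80.4 and 96.1 CPM) and 67NR (57.4, 58.9 and 57.5), the lines with the lowest mean over the 39 genes. It stood at 28.8, 46.1 and 47.3 in E0771 and 32.6, 31.7 and 26.6 in 4T1, with no overlap in either pair. It was the single member higher in AT3 than in E0771 (1.02 ± 0.12, adjusted p = 3.56e-12), it was lower in 4T1 than in 67NR (-0.94 ± 0.14, adjusted p = 8.34e-09), and PyMT-N did not differ from PyMT-M beyond the spread (-0.03 ± 0.16, adjusted p = 0.915). Over the 8 line means, the Pearson correlation of Ifit2 with the mean of the other 38 genes was -0.545, the lowest of the list, against a median of 0.852 and a highest value of 0.986 (Rtp4). These are descriptions over 8 groups of libraries that share one scaling, without a test.

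**Figure D3:**
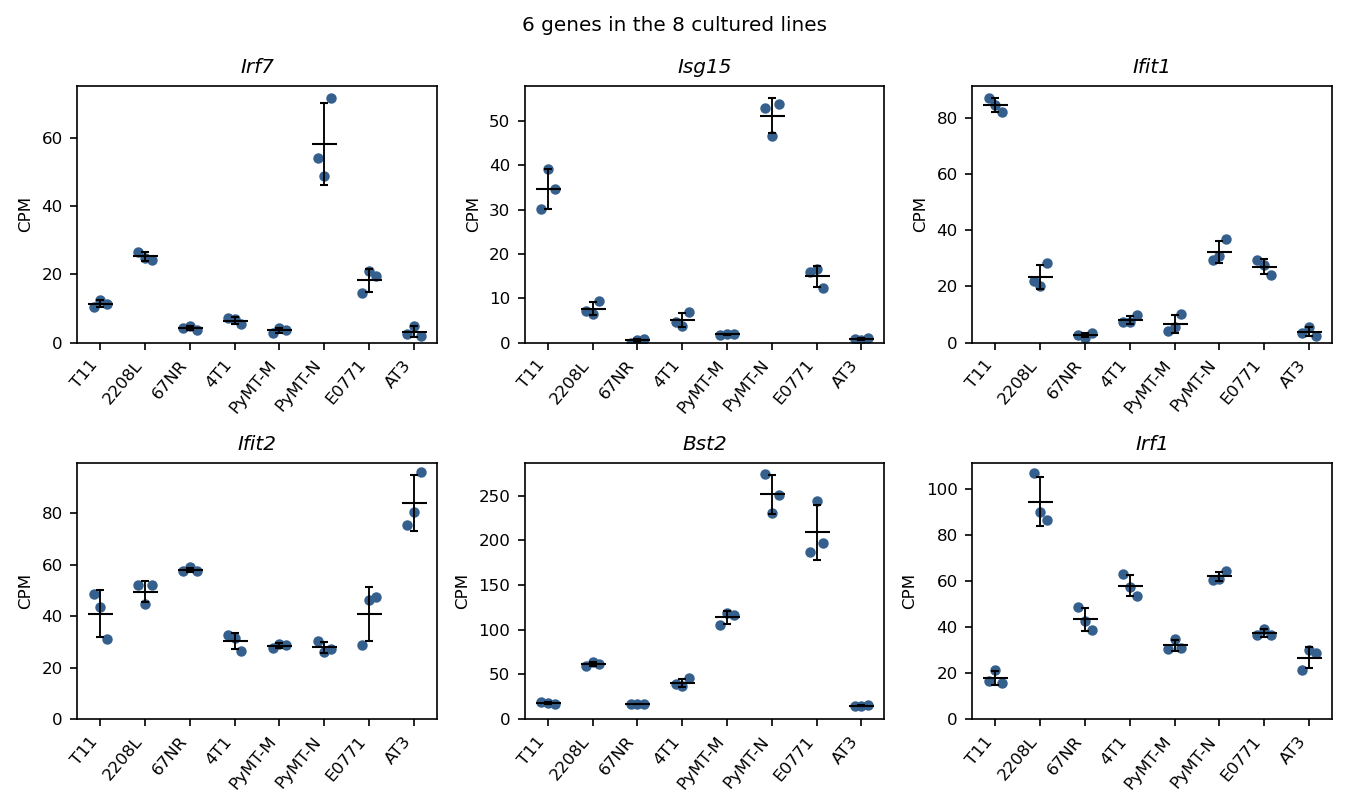
CPM of Irf7, Isg15, Ifit1, Ifit2, Bst2 and Irf1 in the 3 libraries of each of the 8 lines (points), with the mean ± SD. Irf7 and Isg15 are highest in PyMT-N, Ifit1 in T11, Ifit2 in AT3 and Irf1 in 2208L.

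Interferon-inducible GTPases, which attack the vacuoles of intracellular pathogens, were higher in PyMT-N and in E0771 than in PyMT-M in 7 of 7 cases each. Gbp2 stood at 24, 24.5 and 24.5 CPM in 2208L, 18.5, 16.6 and 17.2 in PyMT-N, 17.8, 13.8 and 14.1 in 4T1 and 12.9, 12.6 and 11.5 in 67NR. It stood at 7.69, 5.35 and 8.13 in E0771, 8.76, 5.32 and 5.59 in T11, 8.45, 4.19 and 4.94 in AT3 and 4.46, 3.13 and 2.93 in PyMT-M. E0771 and AT3 overlapped, and Gbp2 was the one GTPase that did not pass between them (-0.29 ± 0.24, adjusted p = 0.34). It differed by 2.30 ± 0.27 for PyMT-N against PyMT-M, 0.97 ± 0.31 for E0771 against PyMT-M and 1.87 ± 0.22 for 2208L against T11, and by 0.28 ± 0.20 for 4T1 against 67NR, which did not pass (adjusted p = 0.25). Irgm1, an immunity-related GTPase, stood at 125, 128 and 122 CPM in PyMT-N and 70.9, 86.8 and 74.4 in E0771 against 10.8, 10.7 and 12.8 in AT3, where its difference from E0771 was -2.77 ± 0.14.

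The chemokines, which draw CXCR3-bearing T cells and NK cells, were low in culture. Cxcl9 lay between 0.782 and 10.6 CPM in the 24 line libraries, and in none of the 5 comparisons did it pass the test (0.37 for PyMT-N against PyMT-M, 0.23 for E0771 against PyMT-M, 0.38 for AT3 against E0771, 0.36 for 4T1 against 67NR and -0.17 for 2208L against T11; unadjusted p under 0.05 in 0 of 5). Cxcl10 stood at 18.9, 14.9 and 17.3 CPM in T11, 11.9, 9.70 and 11.4 in PyMT-N, 4.38, 7.75 and 7.75 in 67NR and 4.23, 6.54 and 8.12 in 4T1. It stood at 3.43, 4.69 and 6.59 in PyMT-M, 4.84, 4.73 and 3.70 in E0771, 5.29, 3.41 and 4.22 in 2208L and 2.58, 1.71 and 0.988 in AT3. T11 lay above the rest, and the differences that passed were 1.18 ± 0.28 for PyMT-N against PyMT-M, -1.31 ± 0.36 for AT3 against E0771 and -1.94 ± 0.27 for 2208L against T11. The differences of -0.14 (E0771 against PyMT-M) and -0.03 (4T1 against 67NR) did not pass.

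Of 107 further genes of the interferon pathway, 101 were in the table and 79 passed the filter in lines. In PyMT-N against PyMT-M, 44 of these were higher and 9 lower (23.7% and 21.3% of all genes), among them 28 higher and 5 lower of 48 further target genes and 6 higher and 1 lower of 9 receptors and kinases. Jak2, a kinase of the interferon gamma receptor, differed by 2.63 ± 0.12, the double-stranded RNA receptor Tlr3 by 2.97 ± 0.20, the target Trim30a by 3.29 ± 0.19 and the peptide transporter gene Tap2 by -1.63 ± 0.16. In E0771 against PyMT-M, 30 of 79 were higher and none lower (2.45% and 4.18% of all genes), and 27 of the 30 were further targets, such as Trim30a (3.61 ± 0.18). In AT3 against E0771, 39 were lower and 9 higher (27% and 18.9% of all genes), with 29 lower and 3 higher of the 48 targets. Ifi27l2a (-2.91 ± 0.35) was lower in AT3, and Ifitm1, which restricts viral entry, was higher (3.19 ± 0.44). Of the interferon genes themselves 20 were in the table and none passed the filter in lines. Ifnb1, the gene of interferon beta, held 20 counts in the 3 AT3 libraries together (1.88, 0.931 and 1.48 CPM) and 3 counts in those of E0771 (0.570, 0 and 0.246 CPM), so its level could not be compared between lines at this depth.

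In the sorted cells, some results depended on the scaling factors, and both sets are given where they differ. Shares of all genes are those of the fit with factors from all genes. They are not given for counts under other settings, so those counts have no matching share beside them. TMM factors computed from all genes were set beside factors from genes above the receptor level, an alternative chosen after values were seen, because the receptor genes summed to 12999 to 18878 CPM in T11 neutrophils, 6351 to 12607 in AT3, 7124 to 9082 in E0771 and 3861 to 6066 in 2208L neutrophils, but to 870 to 3245 in macrophages. Per kilobase of exon, 37 of the 39 members in 2208L neutrophils reached at least 10 times the level of the receptor genes. The count was 35 in E0771, 22 in AT3 and 12 in T11 neutrophils, and 37 to 39 in macrophages. The part of this receptor signal in the results was not tested. Members differing between the 4 tumours numbered 34 of 39 in neutrophils (17.8% of all 19056 genes tested) and 32 of 39 in macrophages (39.3%). Between the 4 tumours, group means of neutrophils ranged most widely for Oasl2 (3.21), Ifit3 (2.88), Ifit1 (2.84), Irgm1 (2.77), Bst2 (2.67) and Rsad2 (2.28), and least for Mx2 (0.45), Irf1 (0.68) and Gbp3 (0.71). Those of macrophages ranged most widely for Ifi44 (5.59), Rtp4 (3.75), Oasl1 (3.52), Oas3 (3.51), Rsad2 (3.30) and Irf7 (3.28), and least for Irf9 (0.55), Eif2ak2 (0.56) and Ifi35 (0.59). In bulk libraries of sorted cells, fewer cells of a type and less RNA per cell cannot be told apart.

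Macrophages of AT3 tumours held less of most interferon-stimulated genes than those of E0771 tumours. The mean of log2(CPM + 1) over the 39 genes was 7.45 ± 0.08 in macrophages of E0771 tumours, 6.99 ± 0.32 in T11, 6.62 ± 0.17 in 2208L and 5.71 ± 0.35 in AT3 (mean ± SD, n = 3). E0771 macrophages held the highest mean of 27 members and T11 of 9, while AT3 macrophages held the lowest of 29 and 2208L of 9. In AT3 against E0771 macrophages, 28 of 39 members were lower and 1 higher, beside 12.7% of all genes lower and 9.71% higher, with a median of -1.59 against -0.19 over all genes. With factors from genes above the receptor level, 35 were lower and none higher, and all 28 were among the 35. Lower were 2 of 4 transcription factors, 4 of 4 sensors, 2 of 3 genes of the ISG15 system, 16 of 19 antiviral effectors and 3 of 7 GTPases, and the chemokines split. Leaving out any 1 library gave between 27 and 29 members passing. Summed markers of every cell type listed differed between these groups without overlap. The 6 dendritic cell markers, all with counts, summed to 172 to 617 CPM in E0771 and 27.3 to 34.1 in AT3 macrophages, the 10 T and NK cell markers to 220 to 278 and 32.5 to 38.7, the 3 endothelial markers to 265 to 270 and 44.1 to 68.2, and the 4 B cell markers to 39.2 to 103 and 9.45 to 27.8. Higher in AT3 were the macrophage markers themselves, at 25400 to 29600 against 7680 to 13300 CPM in E0771, the 3 monocyte markers, at 721 to 1420 against 82.7 to 308, the neutrophil markers, at 717 to 844 against 362 to 478, the epithelial markers, at 158 to 237 against 55.6 to 114, and the 4 fibroblast markers, at 309 to 436 against 192 to 221. Of the 4 plasmacytoid dendritic cell markers, which summed to 21.6 to 27.1 CPM in E0771 and 11.5 to 17.2 in AT3, Cox6a2 was at 0 in AT3, and the 4 erythroid markers summed to 10.8 to 16.9 and 4.2 to 10.1 CPM, with 3 of them at 0 in both. Their part in the result was not tested.

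Irf7 stood at 918, 626 and 772 CPM in E0771 macrophages and at 44.2, 113 and 93.5 in AT3 macrophages, with no overlap. The log2 difference was -3.20 ± 0.36 (edgeR, adjusted p = 5.63e-09). Stat2 (-1.51 ± 0.29) was the other transcription factor that was lower in AT3. Irf1 stood at 82.7, 118 and 171 CPM in E0771 and 66.9, 110.2 and 52.7 in AT3, and these overlapped (-0.70 ± 0.36, adjusted p = 0.15). Isg15 stood at 175, 127 and 129 CPM in E0771 macrophages against 13.9, 49.3 and 23.6 in AT3 (-2.28 ± 0.41, adjusted p = 7.96e-05). Rsad2 stood at 332, 313 and 414 against 8.84, 88.2 and 50.5 (-2.82 ± 0.44), and Ifit1 at 121, 129.6 and 140.2 against 11.4, 26.2 and 18.3 (-2.78 ± 0.40). The 3 AT3 libraries lay below the 3 E0771 libraries for each of these 3 genes, although AT3 library 1 held Rsad2 far below the other 2. The largest differences were those of Rtp4 (-3.72 ± 0.39), Oasl1 (-3.52 ± 0.36) and Oas3 (-3.48 ± 0.37), and Zbp1 led the sensors (-2.35 ± 0.33). Bst2 stood at 151, 118 and 86.3 CPM against 74.5, 65.1 and 52.7, and its difference of -0.88 ± 0.34 did not pass (adjusted p = 0.0556), although it did with factors from genes above the receptor level (-1.39, adjusted p = 0.00379).

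Gbp2 and Cxcl9, both classical targets of interferon gamma, did not go with the effectors in AT3 macrophages. Gbp2 stood at 172, 278 and 90.3 CPM in AT3 and 109.8, 127 and 180.4 in E0771 macrophages, overlapping, with a difference of 0.37 ± 0.39 (adjusted p = 0.511), a sign that factors from genes above the receptor level turned (-0.13, adjusted p = 0.833). Cxcl9 stood at 83.4, 419 and 73.1 CPM in AT3 and 67.8, 78.9 and 52.9 in E0771, and its difference of 1.54 ± 0.56 (adjusted p = 0.0423) rested on AT3 library 2. Without that library it was 0.25 (adjusted p = 0.809), and it passed in 2 of 8 other settings and in 2 of 6 fits that each left out 1 library. Cxcl10 stood at 73.3, 240.4 and 64.5 CPM against 461, 402 and 283, and the difference was -1.59 ± 0.40. The GTPases that were lower in AT3 were Ifi47 (-1.66 ± 0.33), Irgm1 (-1.28 ± 0.35) and Irgm2 (-1.17 ± 0.31), while Gbp3, Gbp7 and Igtp did not pass.

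Ifi44, an effector of uncertain mechanism, had the widest range in macrophages and was ordered by the strain of the tumour line. It stood at 387, 455 and 469 CPM in T11 and 325, 211 and 269 in 2208L macrophages, at 62.4, 101 and 58.8 in E0771 and at 5.05, 9.45 and 10.8 in AT3. The tumours of the BALB/C lines T11 and 2208L lay above those of the C57BL/6 lines E0771 and AT3 without overlap, and strain and tumour cannot be told apart. The E0771 macrophage library labelled BALB/C, at 62.4 CPM, lay with the other E0771 libraries, so the order does not hold by the label of each library. The difference of AT3 from E0771 was -3.09 ± 0.38 (adjusted p = 5.95e-08). In neutrophils it stood at 32.5, 21.1 and 46.3 CPM in T11, 84, 114 and 54.1 in 2208L, 59.3, 67.5 and 51.2 in E0771 and 27.1, 22 and 24 in AT3, and in the lines the highest levels were in PyMT-N and 2208L. The order by strain was thus not seen in neutrophils or in lines.

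Further pathway genes were counted in the same macrophages. Of 83 that passed the filter in sorted cells, 31 were lower and 8 higher in AT3 than in E0771 macrophages, beside 12.7% and 9.71% of all genes, with 29 lower and 1 higher of 50 further targets. Ifi205, of the family that binds DNA, differed by -3.91 ± 0.50, Ifi27l2a by -2.99 ± 0.31 and Slfn1 by -2.59 ± 0.42. Among upstream genes, Mavs, the adaptor of the RNA sensors, was higher in AT3 (2.19 ± 0.35), as was the receptor gene Ifngr1 (1.64 ± 0.35).

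Neutrophils of the same tumours gave a smaller count. The mean over the 39 genes was 6.96 ± 0.14 in neutrophils of E0771 tumours, 6.74 ± 0.24 in 2208L, 6.00 ± 0.56 in AT3 and 5.54 ± 0.28 in T11. E0771 neutrophils held the highest mean of 24 members and 2208L of 13, and T11 neutrophils the lowest of 29. These means and ranks are given with factors from all genes only. With factors from genes above the receptor level, the members' median of 2208L against T11 neutrophils moved from 1.29 to 0.32. How far T11 neutrophils lay below thus depends on the scaling, and their rank was not tested with those factors. In AT3 against E0771 neutrophils, 10 of 39 members were lower and none higher, beside 0.645% of all genes lower and 1.46% higher, and the median was -0.96 against 0.01 over all genes. The count was 20 lower with factors from genes above the receptor level, 17 with DESeq2, 3 without E0771 library 3 and 5 without the 2 E0771 libraries labelled BALB/C. No share of all genes is given for these settings. The macrophage markers summed to 2710 to 4560 CPM in AT3 and 1160 to 1190 in E0771 neutrophils, the neutrophil markers to 8580 to 28500 and 5310 to 7970, the monocyte markers to 223 to 408 and 106 to 150, the fibroblast markers to 279 to 486 and 243 to 256 and the B cell markers to 28.6 to 51.9 and 54.4 to 69.8, none of them overlapping, while the 6 other marker sums overlapped. Their part in the result was not tested. Irgm1 led, at 15.8, 41.8 and 11.4 CPM in AT3 and 110.1, 180.3 and 141 in E0771 neutrophils (-2.62 ± 0.40, adjusted p = 5.13e-05). Ifit2 (-1.89 ± 0.32), Ifit1 (-1.87 ± 0.34), Ifit3 (-1.55 ± 0.35), Mx1 (-1.55 ± 0.37), Ifih1 (-1.19 ± 0.30) and Ddx58 (-1.08 ± 0.30) were also lower in AT3.

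The genes given in every library varied between AT3 neutrophil libraries. Irf7 stood at 38.4, 134 and 80.9 CPM in AT3 and 225, 229 and 243 in E0771 neutrophils, without overlap (-1.46 ± 0.35, adjusted p = 0.0136), but it passed in only 1 of 6 fits that each left out 1 library. Ifit1 stood at 42.9, 155 and 149 against 352, 480.3 and 433 CPM, and Rsad2 at 178, 888 and 707 against 970.04, 1284 and 899. Library 1 of AT3 was the lowest of the 3 for both genes. Isg15 stood at 22.6, 161 and 75.9 against 133, 224 and 229 and overlapped, and neither Isg15 (-1.17 ± 0.38, adjusted p = 0.0939) nor Rsad2 (-0.83 ± 0.40, adjusted p = 0.343) passed. With factors from genes above the receptor level, Isg15 passed by edgeR (-1.47, adjusted p = 0.0091) and Rsad2 did not (-1.11, adjusted p = 0.0708). Bst2 at 9.04, 36.3 and 20.2 against 37.5, 31.4 and 17.6 CPM (-0.41 ± 0.40) and Irf1 at 49.7, 86.9 and 79.7 against 62.9, 171 and 78.4 (-0.54 ± 0.36) did not pass either. Gbp2 stood at 46.3, 272 and 75.9 against 119, 213 and 168 CPM, Cxcl9 at 26, 129.8 and 30.4 against 30.2, 40.7 and 30.4 and Cxcl10 at 46.3, 211 and 89.8 against 167, 208 and 138. All 3 were highest in library 2 of the AT3 group and none passed (-0.34, 0.88 and -0.56).

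AT3 and E0771 could be compared in line, neutrophils and macrophages, in libraries that do not overlap between these 3 compartments. Of 39 members, 34 were lower in the AT3 line, 10 in AT3 neutrophils and 28 in AT3 macrophages. In line and macrophages together 25 were lower, which is 73.5% of the line's 34 and 89.3% of the macrophages' 28. These 25 are 64.1% of the members, beside 2.27% of the 17545 genes tested in both sets. In all 3 compartments 8 were lower, namely Irf7, Ifih1, Ddx58, Ifit1, Mx1, Xaf1, Ifi44 and Irgm1, beside 0.217% of all genes. Estimates were negative in all 3 for 34 of 39, beside 13.8% of all genes. The difference AT3 minus E0771 was more negative in macrophages than in neutrophils for 7 members by the interaction test (1.41% of all genes) and less negative for none (0.656%), among them Rtp4 (-2.70 ± 0.51), Oas3 (-2.53 ± 0.49), Oasl1 (-2.46 ± 0.48) and Irf7 (-1.74 ± 0.48). This count was 13 with factors from genes above the receptor level, 3 without E0771 neutrophil library 1 and 3 without both E0771 libraries labelled BALB/C. Whether the line differed from the sorted cells was not tested, because the 2 sets were scaled separately.

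**Figure D4:**
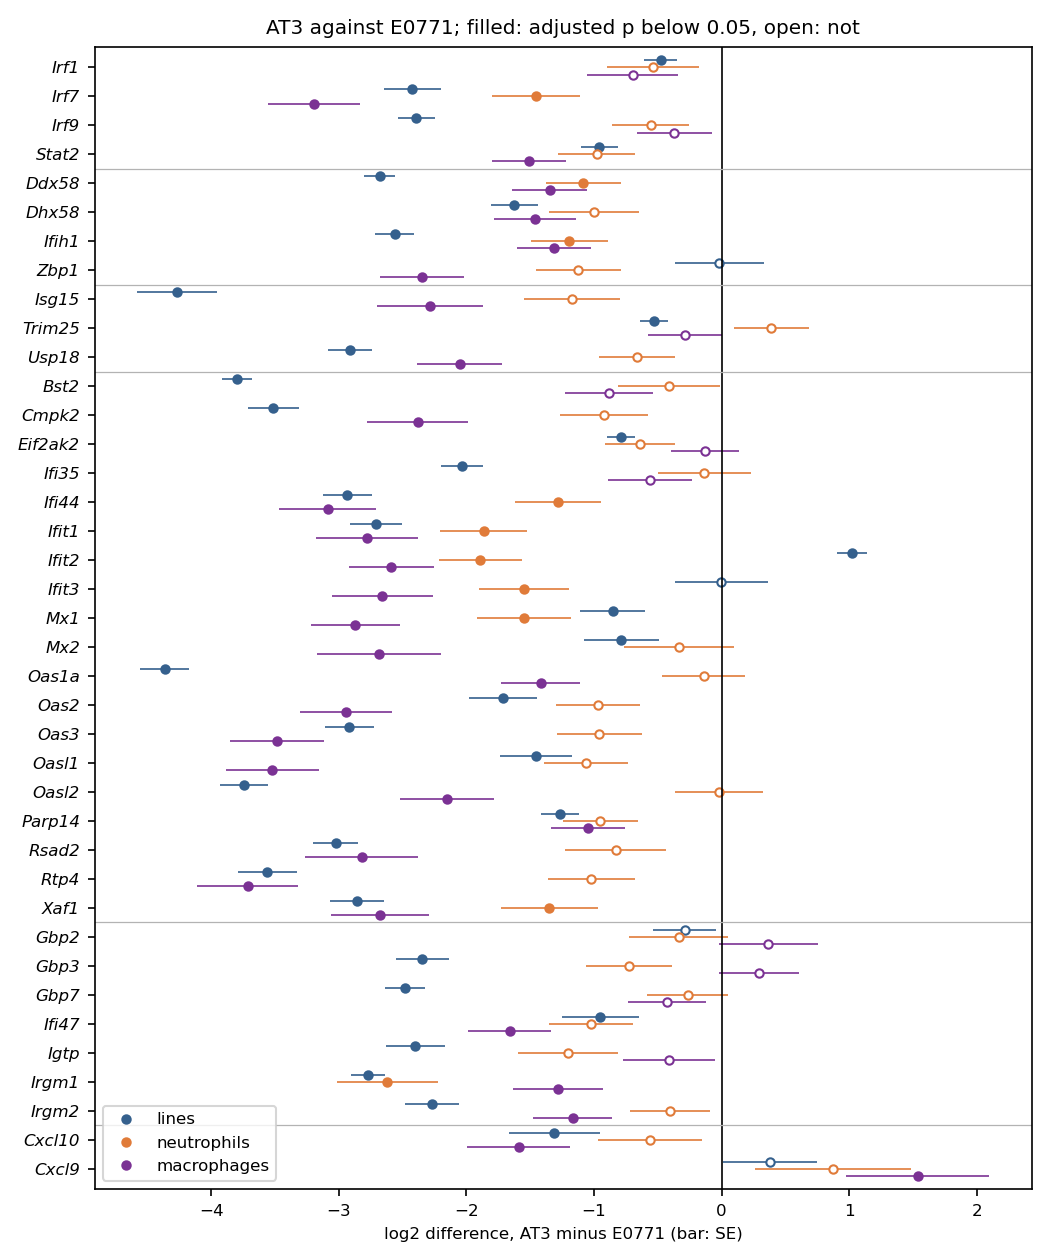
Log2 difference AT3 minus E0771 (± SE) of the 39 genes in the lines, the neutrophils and the macrophages. Filled points passed an adjusted p under 0.05 (34 lower and 1 higher in the line, 10 lower in neutrophils, 28 lower and 1 higher in macrophages). Most points lie left of 0, with Ifit2 to the right in the line.

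For T11 and 2208L tumours, the compartments did not go the same way. In neutrophils, 27 of 39 members were higher in 2208L than in T11 and none lower, beside 16.1% of all genes higher and 2.24% lower, and the median was 1.29 against -0.24 over all genes. With factors from genes above the receptor level, 8 were higher and 2 lower and the median was 0.32, so this result depends on the scaling. Receptor genes summed to 12999 to 18878 CPM in T11 and 3861 to 6066 in 2208L neutrophils. Higher in 2208L were the macrophage markers (494 to 987 in T11 and 5050 to 7870 in 2208L), the neutrophil markers (1700 to 5180 and 7310 to 11700), the epithelial markers (121 to 139 and 486 to 516) and the monocyte markers (57.5 to 73.7 and 90.3 to 130). Higher in T11 were the dendritic cell markers (115 to 131 and 60 to 94.7), the plasmacytoid dendritic cell markers (69.4 to 76.3 and 44.3 to 50.8), the B cell markers (72.6 to 84.8 and 29.1 to 67.4) and the fibroblast markers (197 to 231 and 115 to 188). Sums of T and NK cell and endothelial markers overlapped, and those of erythroid markers met at 23.8. Their part in the difference was not tested. Irf7 stood at 174, 259 and 132 CPM in 2208L and 71.5, 55.2 and 82.3 in T11 neutrophils (1.44 ± 0.35, adjusted p = 0.00178), which became 0.43 (adjusted p = 0.184) under the other factors. Isg15 stood at 116, 132 and 98.4 against 54.2, 24.6 and 46.3 CPM (1.47 ± 0.40), Ifit1 at 219.9, 353 and 229.9 against 50.9, 44.6 and 83.5 (2.17 ± 0.36) and Rsad2 at 759, 942 and 722 against 264, 182 and 203 (1.90 ± 0.41). None of these groups overlapped. Under the other factors Isg15 did not pass by edgeR (0.49, adjusted p = 0.233), while Ifit1 (1.16) and Rsad2 (0.91) did. Bst2, at 21.8, 20.3 and 20.9 against 2.17, 7.04 and 2.57 CPM, had the largest difference (2.38 ± 0.53), followed by Ifit1, Oasl2 (2.13) and Trim25 (2.01), and Bst2 still passed under the other factors (1.39, adjusted p = 0.0325). The T11 neutrophil libraries held 10 Bst2 counts in all, so its difference rests on few counts. Irf1 (70.5, 161 and 95.9 against 75.8, 48.1 and 72 CPM, 0.74), Gbp2 (115, 94.4 and 95.9 against 39, 49.3 and 68.1, 0.97) and Cxcl10 (117, 121 and 116 against 71.5, 29.3 and 77.1, 0.99) did not pass. Cxcl9 was the 1 member of the 9 given in every library that lay lower in 2208L, at 12.4, 13.2 and 6.15 against 17.3, 24.6 and 36 CPM. Its -1.24 ± 0.73 did not pass (adjusted p = 0.242), but it passed by edgeR under the other factors (-2.26, adjusted p = 0.0209).

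In macrophages of the same tumours, 6 of 39 members were lower in 2208L than in T11 and none higher, beside 7.25% of all genes lower and 8.44% higher. The median was -0.38 against 0.13 over all genes, and 3 were lower with factors from genes above the receptor level. The epithelial markers summed to 415 to 540 CPM in 2208L and 26.5 to 44.7 in T11 macrophages, the T and NK cell markers to 171 to 231 and 36.3 to 45.5, the neutrophil markers to 359 to 558 and 69.6 to 126, the macrophage markers to 19000 to 36900 and 9440 to 12200, the dendritic cell markers to 67.8 to 139 and 33.9 to 44.4, the plasmacytoid dendritic cell markers to 35.1 to 44.6 and 9.1 to 21.2, the B cell markers to 42 to 151 and 15 to 29.8 and the endothelial markers to 148 to 188 and 62.6 to 115. None of these sums overlapped, those of monocyte, fibroblast and erythroid markers did, and their part in the result was not tested. Ddx58 (-1.42 ± 0.29), Oas2 (-1.41 ± 0.33), Oas3 (-1.13 ± 0.34), Oas1a (-0.83 ± 0.30), Irf7 and Cxcl10 were the 6. Of these, Ddx58, Oas2 and Irf7 were the 3 that passed with factors from genes above the receptor level. Irf7 stood at 219.7, 169 and 115 CPM in 2208L and 277, 473 and 379 in T11 macrophages (-1.16 ± 0.33, adjusted p = 0.0117). Cxcl10 stood at 128, 114 and 83.7 against 157, 152 and 425 (-1.16 ± 0.40). These groups did not overlap, and T11 library 3 held the highest Cxcl10 level. Isg15 (67.8, 65.9 and 33.8 against 60.6, 86.1 and 55.4 CPM), Ifit1 (116, 107 and 48.6 against 122, 185 and 91.2) and Rsad2 (312, 324 and 234 against 168, 314 and 165) overlapped and did not pass (-0.26, -0.55 and 0.43). Bst2 (54.9, 32 and 31.1 against 57.5, 57.9 and 47.3), Irf1 (63.5, 78.5 and 63.5 against 42.4, 81.1 and 133) and Gbp2 (63.5, 68.8 and 59.4 against 47.4, 67.9 and 150.02) did not pass either (-0.46, -0.31 and -0.45). Cxcl9, at 32.3, 12.6 and 27 against 7.07, 16.6 and 167 CPM, hung on T11 library 3. Its difference of -1.38 ± 0.63 turned to 0.96 without that library and passed in neither case.

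The difference 2208L minus T11 was lower in macrophages than in neutrophils for 27 members by the interaction test (16.6% of all genes lower and 10.7% higher), with Irf7 at -2.60 ± 0.48, Bst2 at -2.84 ± 0.64 and Ifit1 at -2.72 ± 0.49. With factors from genes above the receptor level, 10 members were lower and 2 higher. Between the lines themselves, 20 members were higher in 2208L and 8 lower. No member was called in the same direction in line, neutrophils and macrophages, beside 1.13% of all genes higher and 0.0228% lower in all 3. With shares this small, nothing particular to the members is read from that. In line and neutrophils together, 15 were higher in 2208L (38.5% of the members, beside 6.71% of all genes). This overlap depends on the scaling. With factors from genes above the receptor level, 8 members were higher in 2208L neutrophils, and of these Trim25, Bst2 and Rtp4 were also higher in the 2208L line.

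Macrophages and neutrophils were compared within tumours, with the 4 tumours weighted equally. Of 39 members 23 were higher and 8 lower in macrophages, beside 30.2% of all genes higher and 46.5% lower, and the median was 0.56 against -0.47 over all genes. With factors from genes above the receptor level, 2 were higher and 22 lower, and the median turned to -0.38 while that of all genes moved from -0.47 to -1.41. Called with both sets of factors were Bst2 and Dhx58, higher in macrophages, and 8 genes of the effector and ISG15 classes, lower in macrophages. Bst2 differed by 2.05 ± 0.21 (edgeR, adjusted p = 3.78e-12) and 1.13 under the other factors, with 57.5, 57.9 and 47.3 CPM in T11 macrophages against 2.17, 7.04 and 2.57 in T11 neutrophils. Dhx58 differed by 1.39 ± 0.17 and 0.44. Lower in macrophages under both were Rsad2 (-1.65 ± 0.21 and -2.57), Ifit1 (-1.17 ± 0.18 and -2.10), Cmpk2 (-0.63 and -1.57), Isg15 (-0.58 and -1.49), Oasl2 (-0.55 and -1.46), Oas3 (-0.38 and -1.29), Usp18 (-0.37 and -1.30) and Oas2 (-0.35 and -1.25). Irf7 (1.00 ± 0.17) and Cxcl9 (1.24 ± 0.32) were higher in macrophages with factors from all genes, but not past the threshold with the other factors (0.07 and 0.34). Cxcl10 (0.80 and -0.10), Irf1 (0.01 and -0.91) and Gbp2 (0.07 and -0.84) changed sign between the scalings.

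**Figure D5:**
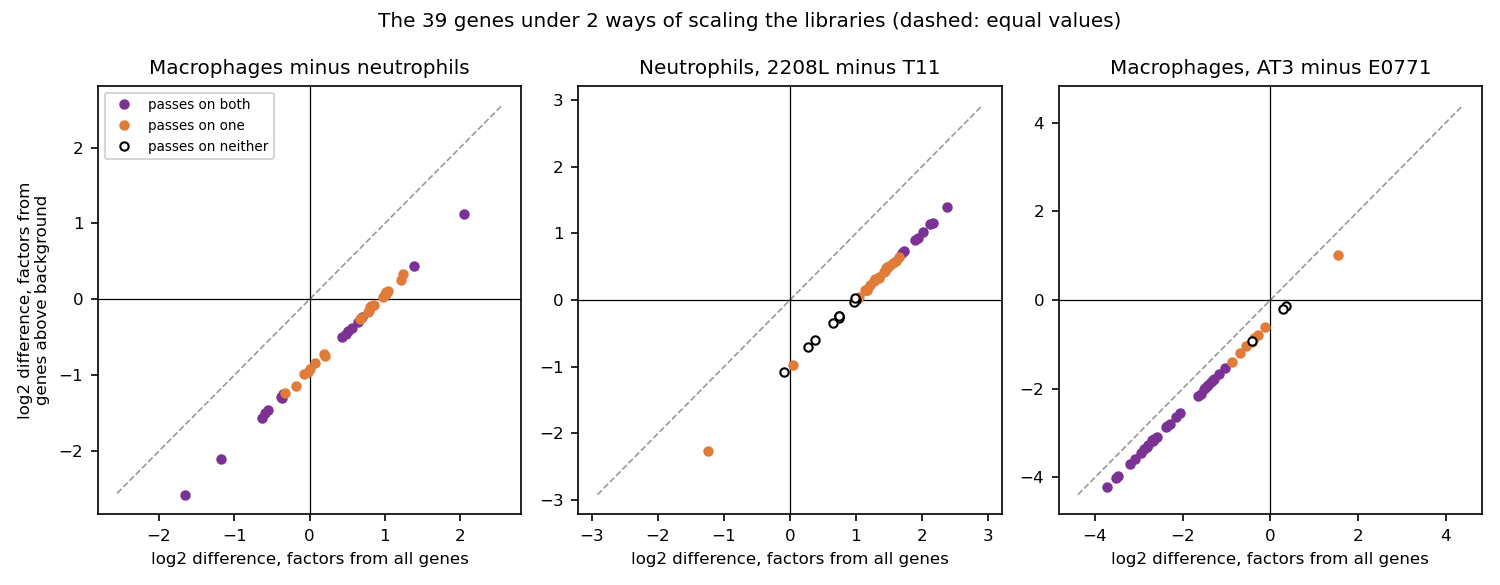
Log2 difference of each of the 39 genes with scaling factors from all genes (x axis) and from genes above the receptor level (y axis), for macrophages minus neutrophils, neutrophils of 2208L minus T11 tumours, and macrophages of AT3 minus E0771 tumours. Points below the diagonal are lower with the second set of factors. In the first panel the median moves from 0.56 to -0.38, in the second from 1.29 to 0.32 and in the third from -1.59 to -2.11.

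Within single tumours the 2 cell types differed in other ways, with factors from all genes. Counts within tumours are not given with factors from genes above the receptor level, which reversed the median over the tumours. How far these counts depend on the scaling was not tested. In T11 tumours 33 members were higher in macrophages and none lower, beside 68.8% of all genes called (29.2% higher and 39.6% lower). In 2208L tumours 3 were higher and 4 lower, beside 9.43% of all genes called (6.29% higher and 3.14% lower). In E0771 tumours 12 were higher and 2 lower, beside 18.1% (11.6% higher and 6.52% lower). In AT3 tumours 9 were higher and 13 lower, beside 52.1% (21.2% higher and 30.9% lower). Rsad2 illustrates this, at 332, 313 and 414 CPM in macrophages and 970.04, 1284 and 899 in neutrophils of E0771 tumours, but at 168, 314 and 165 and 264, 182 and 203 in T11 tumours, where the groups overlapped.

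The calls were also counted by promoter element. In AT3 against E0771 lines, 16 of the 18 members with the element and 11 of the 13 without it were lower, with medians of -2.52 and -2.04. In macrophages of the same tumours 12 of 18 and 8 of 13 were lower (medians -1.33 and -2.15). In PyMT-N against PyMT-M 18 of 18 and 11 of 13 were higher. These are counts without a test, and 8 members had no promoter entry.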

How the data were processed

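The authors deposited a table of raw read counts per gene for 48 RNA-seq libraries. Per the submitters' processing notes, bcl2fastq 2.17, STAR 2.4.2a and the mm10 genome were used; the counting program, its annotation and strand setting are not given in the sources used here. Of the 24054 symbols, 22750 matched GENCODE M21 by symbol, 935 by synonym and 369 not at all, and 3 columns named PyMTE were taken as the PyMT-N libraries, because every other column name matched another title. The members and lists were chosen with earlier results of these data known.

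Counts outside Rn45s were tested with edgeR 4.0.16 (R 4.3.3): TMM factors, genes kept by filterByExpr per group (minimum count 10, minimum total 15), glmQLFit and glmQLFTest, in 1 fit of the 24 line libraries and 1 of the 24 sorted libraries, with Benjamini-Hochberg adjustment over all genes tested (18183 and 19056) and a call at an adjusted p under 0.05. The common biological coefficient of variation was 0.0766 in lines and 0.303 in sorted cells, so sorted cells allow less precise estimates. SE is the absolute log2 difference over the square root of F. Fitted differences of genes with few counts depend on edgeR's prior count. Alternatives were DESeq2 1.42.0 as a test and as size factors, no filter on low counts, Rn45s kept, a fit of only the groups compared, a replicate block, each library left out in turn, the E0771 libraries labelled BALB/C left out and, chosen after values were seen, factors from genes at 10 times the receptor level. The code was tested on simulated data. No 2 libraries of a group agreed within sampling noise: the chi-square per degree of freedom between libraries of a group was 1.24 to 12.5 over 48 pairs.

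All 39 members could be named. For each comparison the text names up to 3 passing members per role with the largest absolute difference, plus Irf7, Isg15, Ifit1, Rsad2, Bst2, Irf1, Gbp2, Cxcl9 and Cxcl10, and for the F tests the 6 widest and 3 narrowest ranges; Ifit2 and Ifi44 were added after their values were seen. No label says that a replicate number marks 1 animal, and same-numbered neutrophil and macrophage libraries of a tumour did not correlate above 0.1 in every pair: their deviations from group means correlated at -0.113 to 0.0921 in T11, 2208L and E0771 tumours and at 0.15, 0.191 and 0.0468 in AT3 tumours. Differently numbered libraries correlated at -0.145 to 0.194 in T11, 2208L and E0771 tumours. In AT3 tumours they correlated at -0.175 to 0.031, below every same-numbered pair there. Whether AT3 libraries of the same number share an animal was not tested.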

Additional observations from a re-analysis of the deposited data

Results flagged for a closer look

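The difference 2208L minus T11 was not the same in macrophages as in neutrophils for 27 of 39 members by the edgeR interaction test. All 27 were lower in macrophages, beside 16.6% of all genes lower and 10.7% higher. Rsad2 stood at -1.47 on the log2 scale, Ifit1 at -2.72, Isg15 at -1.73, Cxcl10 at -2.15, Irf7 at -2.60 and Bst2 at -2.84. With scaling factors from genes above the receptor level 12 members passed, 10 of them lower and 2 higher in macrophages. The difference AT3 minus E0771 was more negative in macrophages than in neutrophils for 7 members, with Irf7 at -1.74, and for 13 with the other factors. With factors from all genes, 1.41% of all genes were lower in this test and 0.656% higher.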

How the results depend on the processing

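With scaling factors from genes above the receptor level, the number of members called was 10 for neutrophils of 2208L against T11 (8 higher and 2 lower). It was 20 for neutrophils of AT3 against E0771 and 3 for macrophages of 2208L against T11. For the difference between the cell types it was 12 for 2208L minus T11 (10 lower and 2 higher) and 13 for AT3 minus E0771. The same factors reversed macrophages against neutrophils in the median (-0.38), Irf1 (-0.91), Gbp2 (-0.84) and Cxcl10 (-0.10). DESeq2 called 17 members in neutrophils of AT3 against E0771. Without both E0771 libraries labelled BALB/C that count was 5, and 3 members passed for AT3 minus E0771 between the cell types. Leaving out 1 library at a time gave 3 to 12 members for neutrophils of AT3 against E0771 (3 without E0771 neutrophil library 3) and 3 to 9 for AT3 minus E0771 between the cell types (3 without E0771 neutrophil library 1). It gave 35 to 36 for PyMT-N against PyMT-M, 33 to 36 for the AT3 against E0771 lines and 27 to 29 for their macrophages. A replicate block gave 36, 35 and 28 in these 3 comparisons and 9 in neutrophils of AT3 against E0771, and it changed no count by over 1.5 times. The cause of these changes was not tested. Neutrophil libraries held 470712 to 1185233 counts outside Rn45s and macrophage libraries 683150 to 1755895, and the part of depth in the counts of calls was not tested.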

Other observations

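Of 7209 other genes with a mean log2 CPM of at least 4 in both sets, Helz2, an interferon-inducible helicase gene, followed the mean of the 39 genes most closely, with a Pearson correlation of 0.808 over the 8 line means and 0.942 over the 8 means of sorted cells. Sdc1 (0.739 and 0.758), Kctd5 (0.761 and 0.727) and Tor1aip2 (0.860 and 0.709) came next by the smaller of both values. These describe 16 groups that share their scaling and carry no test.

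Of the interferon genes, Ifng, Ifnk and Ifna13 passed the filter in sorted cells. Ifna13 (-3.13 ± 0.58, adjusted p = 7.71e-06) and Ifng (-1.25 ± 0.49, adjusted p = 0.0195) were lower in macrophages than in neutrophils by edgeR, where the receptor genes also were lower.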
